A study of Mus musculus with 8 samples.

Results

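The chaperones of the cytosol and mitochondria described here were 56 of the 12339 genes in the deposited table, chosen by symbol alone: every symbol beginning with Dnaja, Hsp90a, Hspa4 or Pfdn, or with Bag, Cct, Hspb or Fkbp and a digit, and 15 of 17 single genes named in the rule. Hspa1a and Hspa1b, the stress-inducible HSP70 pair, were named too but were not in the deposited table. Molecular chaperones bind proteins that are not yet folded, or have lost their fold, and keep them from clumping until they fold, are handed to another chaperone or are degraded. HSP70 works in cycles of ATP use that J proteins start and nucleotide exchange factors (the BAG and HSP110 proteins) end, HSP90 finishes signalling proteins with the help of cochaperones, and the ring-shaped chaperonins enclose their clients. Many of these genes are switched on by heat shock factor 1 (Hsf1) when unfolded protein builds up, whereas Nrf2 (gene Nfe2l2) is the master regulator of the response to oxidative stress.

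The libraries held ribosome-bound RNA of Müller glia, which span the depth of the retina and support its neurons, from mice in oxygen-induced retinopathy (OIR) at postnatal day 14. RiboTag profiling tags the ribosomal protein Rpl22 wherever Cre is expressed, which allows their ribosomes to be purified with the RNA on them. A group of 4 libraries was wild type (WT) and a group of 4 carried a conditional knockout of Nrf2 restricted to Müller cells (cKO). Both groups had OIR, the same tissue and the same day, and both were numbered 1, 3, 4 and 5. Sex, strain, litter, the Cre driver, the deleted part of the gene and the number of animals behind a library are not given in the sources used here. The p-values therefore measure the spread between these libraries, which may in part be technical.

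Expression is given in FPKM, fragment counts scaled to transcript length and library size. Differences are cKO minus WT on the scale of log2(FPKM + 0.5), with their standard error (SE), and understate the change of low genes. Adjusted p-values are from limma, two-sided, with Benjamini-Hochberg adjustment over all 12339 genes and a threshold of 0.05. Libraries of equal number deviated together, so a second limma fit took the number as a block beside genotype. Library sums were 410581 to 448130 FPKM, and the number of fragments is not given. Nfe2l2 was at 17.5, 18.8, 23.1 and 17.5 FPKM in the WT libraries and 12.7, 16.5, 14.8 and 10.4 FPKM in the cKO libraries, lower by 0.50 in cKO in an exact two-sided permutation test (p = 0.0286, the smallest that 4 against 4 allows) and with the block (limma adjusted p = 0.0219), but not without it (0.453). All 10 Müller markers were measured, with sums of 6507 to 10861 FPKM in WT and 6616 to 9402 FPKM in cKO. Markers listed for other cells were present as well. The 7 bipolar cell markers, none at 0, summed to 1392 to 1736 FPKM in WT and 1749 to 2158 FPKM in cKO, without overlap. Of the 4 genes listed for astrocytes, Gfap, S100b and Aldh1l1 were measured and Pax2 was not in the table. The 3 measured summed to 94.3 to 241 FPKM in WT and 216 to 364 FPKM in cKO. Whether astrocytes or Müller cells held this RNA was not tested. The 8 rod markers summed to 2676 to 4352 and 2944 to 4344 FPKM. With the block, 2 of the 10 Müller markers fell (median difference of the 10, −0.14), as did 4 of 6 cone, 2 of 5 amacrine or horizontal and 2 of 5 ganglion cell markers. In the same fit 2 of the 3 measured genes of the astrocyte list (median 0.44) and 3 of the 7 bipolar markers (median 0.21) rose. No rod marker was called, and no listed microglial marker was in the table. The part of other cells in the chaperone values was not tested, and fewer cells of a type and less RNA per cell cannot be told apart in such samples.

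Most chaperone RNAs were slightly higher on ribosomes in cKO, and few passed a test. Of the 56 members, 41 (73.2%) had a difference above 0, against 50.7% of all genes, and their median difference was 0.09, against 0.00 for all genes. With the block, 3 members (5.36%) rose and none fell, against 2.99% of all genes that rose and 7.59% that fell (10.6% in all). In mean FPKM, Hspb6, the small heat shock protein also called Hsp20, was 34.7% higher, Pfdn4, a subunit of the prefoldin complex, 33.1%, and Bag1, a nucleotide exchange factor of HSP70, 18.6%. Without the block none (0%) of the genes in the table passed, the smallest limma adjusted p being 0.149 over all genes and 0.417 among members. At an unadjusted p under 0.05, that fit had 3 members higher and none lower (Hspb6, Pfdn4 and Stip1), against 3.95% and 6.67% of all genes (10.6% in either direction). With the block, 17 members (30.4%) were higher and 2 (3.57%) lower at an unadjusted p under 0.05, against 12.4% and 16% of all genes. In all 4 pairs of equal number, 18 members (32.1%) were higher in cKO and 4 (7.14%) lower, against 16.7% and 19.5% of all genes. Every cKO value lay above every WT value for 4 members (7.14%; Hspb6, Hspa8, Dnaja3 and Dnajb4), against 2.06% of all genes, and below for none, against 2.28%. The median difference of the members was 0.17, 0.10, 0.06 and 0.07 in pairs 1, 3, 4 and 5. After scaling each library to an equal sum, 36 members had a difference above 0, with a median of 0.06 against −0.03 for all genes, and after quantile scaling 35, with 0.06 against 0.03. The shares of all genes above 0 were not computed under these 2 scalings.

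**Figure D1:**
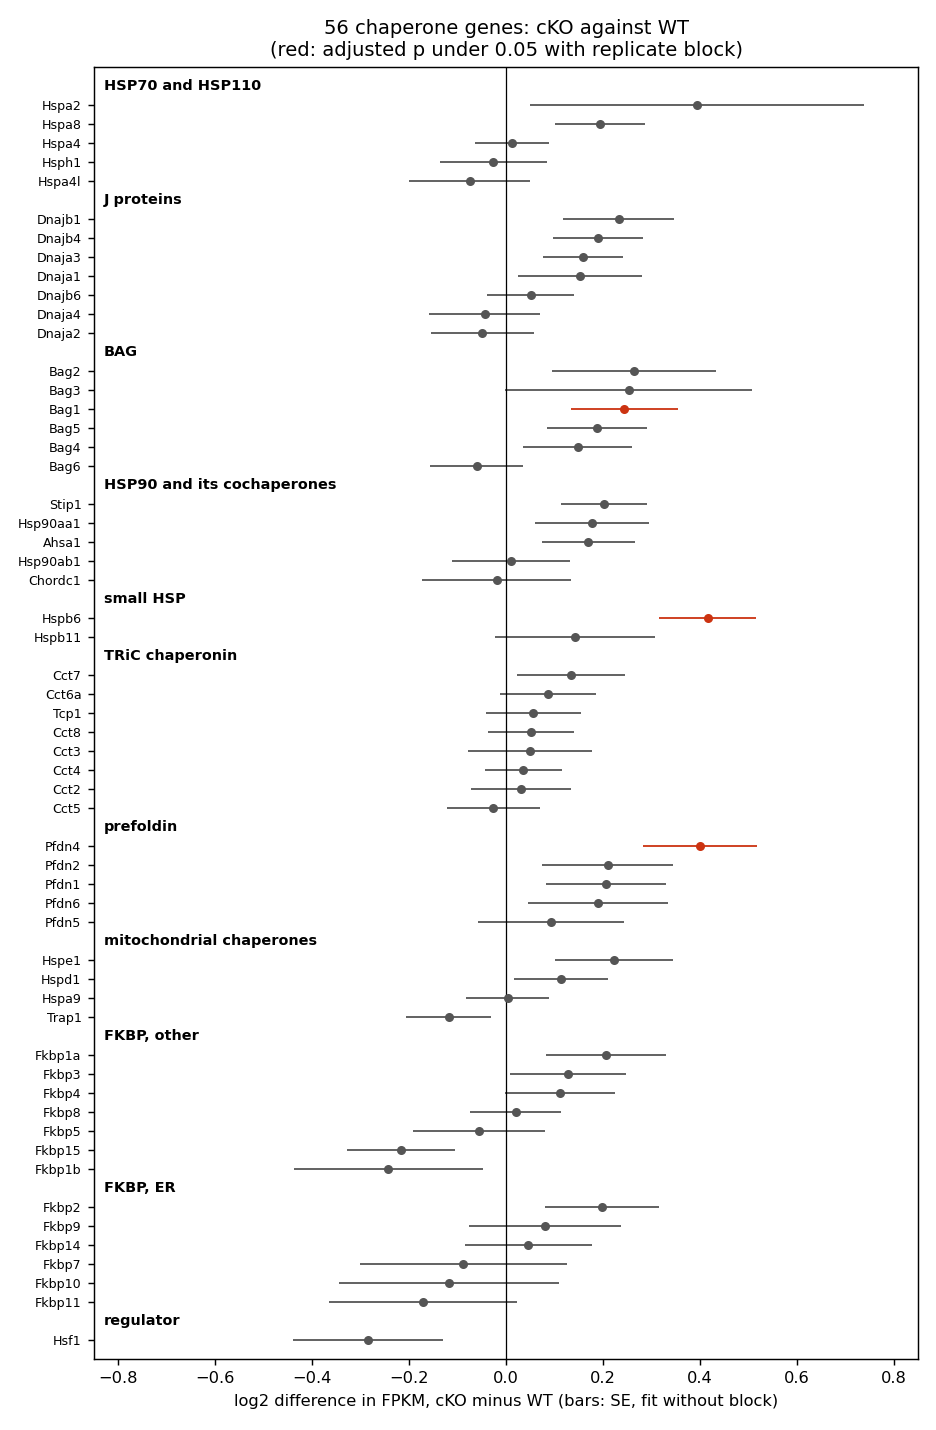
Log2 difference in FPKM (cKO minus WT, x axis) of the 56 members by role, as points with SE bars from the limma fit without the block (4 libraries per group). The 3 members past the threshold with the block (Hspb6, Pfdn4, Bag1) are red, and 41 of 56 points lie above 0.

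Fewer genes and members passed when a pair was left out. With the block 1305 genes of the table passed, and 402, 606, 524 and 821 without pairs 1, 3, 4 and 5. Each of those fits had fewer libraries, so a lost call does not by itself point at the pair left out. The differences in those fits were 0.22 to 0.26 for Bag1, 0.35 to 0.49 for Pfdn4 and 0.33 to 0.50 for Hspb6. No member passed with the block when pair 1 or pair 5 was left out. Hspb6 alone passed without pair 3 and Pfdn4 alone without pair 4. The adjusted p of Bag1 was 0.0737 to 0.127 in these 4 limma fits. The counts without the block moved with single libraries too. Without cKO 3, 10 members had groups that did not overlap in the higher direction and 1 in the lower, and 9 and 1 had an unadjusted p under 0.05. Without WT 5 the higher counts were 7 and 8, and without WT 4 they were 5 and 6. The shares of all genes were not computed for these fits. With 1 library fewer the groups of any gene separate more easily, so these counts give no result about the members.

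Sequences before a RefSeq start of the 3 members that rose are shown because the knocked-out factor and Hsf1 act on promoters. Searched were RefSeq windows (GRCm38.p6) from 250 bases before to 50 after a gene's start, which matched 47 of the 56 members; a gene with several starts has several windows and was counted if any held a match. The core of the antioxidant response element bound by Nrf2 was searched as TGACNNNGC, and the heat shock element as GAANNTTC or TTCNNGAA (2 units) and GAANNTTCNNGAA or TTCNNGAANNTTC (3 units, each holding the 2-unit motif), all on both strands. The longest stretch of a window before the start that lies outside annotated exons is printed 5′ to 3′ on the gene's strand, with motif matches in capitals: an antioxidant core on the other strand in Bag1 (chr4:40948295-40948406, minus strand), a 2-unit heat shock element in Hspb6 (chr7:30553063-30553267, plus strand) and no match in Pfdn4 (chr2:170496365-170496427, plus strand). Hspb6 has 2 windows, and the stretch shown precedes the later start, so it lies within the annotated gene and not before its first start.
Bag1: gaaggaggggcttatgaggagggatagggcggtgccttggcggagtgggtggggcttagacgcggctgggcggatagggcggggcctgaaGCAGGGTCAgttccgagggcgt
Hspb6: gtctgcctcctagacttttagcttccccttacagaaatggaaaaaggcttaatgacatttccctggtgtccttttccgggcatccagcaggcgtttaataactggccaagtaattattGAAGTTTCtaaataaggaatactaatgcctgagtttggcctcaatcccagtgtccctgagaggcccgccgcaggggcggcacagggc
Pfdn4: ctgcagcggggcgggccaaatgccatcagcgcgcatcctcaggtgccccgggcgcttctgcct

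The antioxidant core was found in 8 of the 47 members (17.0%), among them Bag1, Dnajb1, Hsph1 and Tcp1, against 14% of the 27025 genes with a window. These 27025 genes are not limited to the 12339 of the deposited table, for which the motif shares were not computed. The 2-unit heat shock element was in 15 members (31.9%) and 17.0% of the 27025 genes. The 3-unit element was in 5 members (10.6%) and 0.662% of the 27025 genes. The 30 bases around each are printed with the element in capitals, and the matches describe letters, not binding. Hspd1 and Hspe1, the mitochondrial chaperonin and its lid, are divergent neighbours on chromosome 1 and hold the same site, chr1:55088053-55088082, read on the minus strand for Hspd1 and on the plus strand for Hspe1. The others lie at chr9:18292260-18292289 (plus strand), chr5:29735844-29735873 (plus strand) and chr5:149636279-149636308 (minus strand).
Hspd1: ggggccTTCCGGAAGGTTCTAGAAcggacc
Hspe1: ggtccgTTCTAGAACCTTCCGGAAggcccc
Chordc1: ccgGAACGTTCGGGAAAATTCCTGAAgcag
Dnajb6: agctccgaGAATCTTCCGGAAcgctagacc
Hsph1: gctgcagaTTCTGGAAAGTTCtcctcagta

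None of these 5 genes passed a test. Their differences were 0.11 for Hspd1, 0.22 for Hspe1, −0.02 for Chordc1, 0.05 for Dnajb6 and −0.03 for Hsph1, and the signs of Chordc1 and Hsph1 turned under other settings.

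Small heat shock proteins hold unfolded clients without using ATP. Hspb6 (chr7:30552178-30555443, plus strand, GRCm38) was at 22.6, 21.7, 20.3 and 21.6 FPKM in the WT libraries and 29.6, 24.5, 32.5 and 29.5 FPKM in the cKO libraries. Every cKO value lay above every WT value, with cKO 3 the lowest of its group. The difference was 0.42 (SE 0.10), with a limma adjusted p of 0.0258 with the block and 0.417 without it. Exons of Hspb6 overlap those of Proser3 and Lin37 on the opposite strand and of Gm38670 on its own, and the strand setting of the counting is not stated, so their reads cannot be told apart. The rule took 1 more Hspb symbol, Hspb11, which is known as an intraflagellar transport protein (Ift25) rather than a stress chaperone. Hspb11 was at 29.2, 25.8, 42.6 and 36.00 FPKM in the WT libraries and 37.8, 29.4, 36.5 and 42.5 FPKM in the cKO libraries, with overlapping groups and an adjusted p of 0.385 with the block.

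Prefoldin is a cytosolic complex that catches new actin and tubulin chains and passes them to the chaperonin TRiC. All 5 members had a difference above 0, as did 50.7% of all genes, and their median was 0.21. With the block 1 passed and 4 did not. None passed with the block after the correction for length and GC content described below. Pfdn4 (chr2:170496428-170519123, plus strand) was at 21.8, 17.1, 19.3 and 19.01 FPKM in the WT libraries and 28.5, 25.5, 21.2 and 27.6 FPKM in the cKO libraries. Each cKO library lay above the WT library of its number, and cKO 4 alone fell within the WT range. The difference was 0.40 (SE 0.12), with a limma adjusted p of 0.0284 with the block and 0.453 without it. Its exons overlap those of Cyp24a1 and Gm16796 on the opposite strand. Pfdn5, the most abundant subunit, was at 154, 148, 202 and 165 FPKM in the WT libraries and 171, 142, 224 and 181 FPKM in the cKO libraries, and WT 3 and cKO 3 were the lowest of their groups. Without cKO 4 its difference was −0.02. The differences of Pfdn1 (0.21), Pfdn2 (0.21), Pfdn6 (0.19) and Pfdn5 (0.09) had adjusted p-values of 0.12, 0.0969, 0.164 and 0.385 with the block. Vbp1, the remaining prefoldin subunit and no member by its symbol, was at 66.8 ± 4.23 FPKM in WT and 76.5 ± 7.93 FPKM in cKO (SD, n = 4), a difference of 0.19 (adjusted p = 0.0772 with the block).

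TRiC is the ring of 8 subunits that folds actin and tubulin. All 8 (Tcp1, Cct2, Cct3, Cct4, Cct5, Cct6a, Cct7 and Cct8) were measured at means of 82.0 to 190.0 FPKM. None passed a test. The median difference was 0.05, and the sign turned for Tcp1, Cct2, Cct3, Cct4 and Cct6a under quantile scaling and for Cct2 also under equal-sum scaling. Cct6a, the highest, was at 176, 164, 198 and 199.8 FPKM in the WT libraries and 206, 183, 203 and 189.7 FPKM in the cKO libraries. Cct4, the lowest, was at 82.7, 77.1, 79.8 and 84.5 FPKM in the WT libraries and 81.7, 80.3, 81.9 and 88.3 FPKM in the cKO libraries, and Tcp1 at 92.4, 85.8, 101 and 109.8 FPKM in the WT libraries and 101, 97.6, 97.4 and 107 FPKM in the cKO libraries. The groups of all 3 overlapped. Cct7 was the TRiC subunit with the largest difference (0.13, SE 0.11) and was higher in cKO in each pair, but its adjusted p was 0.194 with the block. The subunits shared the same low libraries: WT 3 was the lowest WT library in 6 of 8 and cKO 3 the lowest cKO library in 7 of 8. For prefoldin the counts were 5 of 5 and 4 of 5, and over all 56 members 29 and 34. The shares over all genes were not computed, so these counts do not set the members apart from the rest of a library. Over all genes the summed FPKM was 414733 in cKO 3, the lowest of the cKO libraries. In WT 3 it was 414612, with WT 1 lower at 410581.

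**Figure D2:**
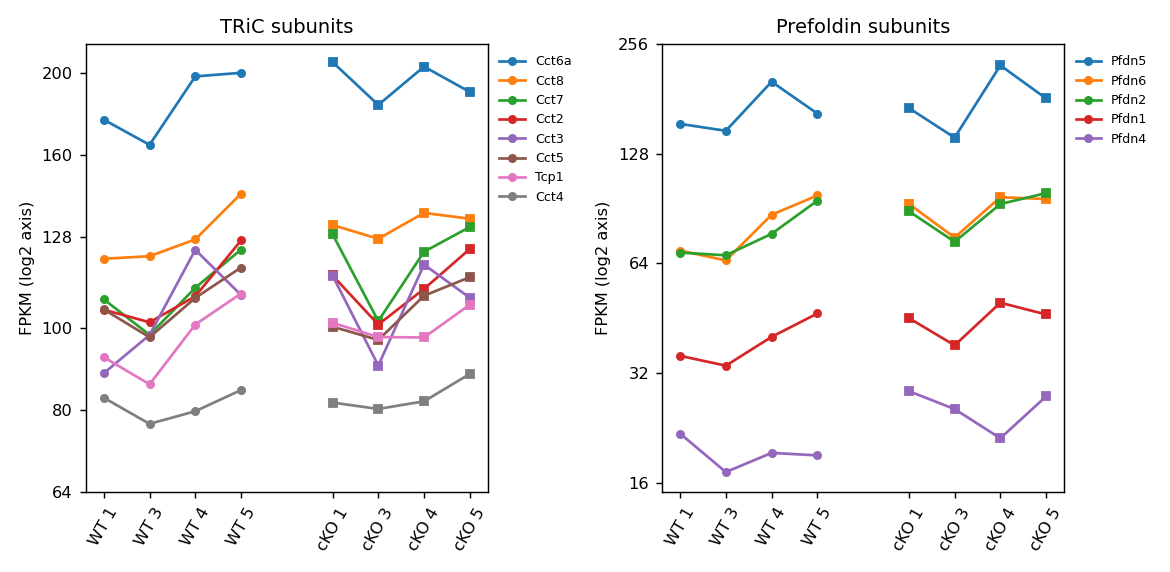
FPKM (log2 axis) of the 8 TRiC and 5 prefoldin subunits in each library (x axis, circles WT, squares cKO); lines join the values of 1 gene and imply no order of the libraries. WT 3 and cKO 3 are low for most subunits, and the median difference is 0.21 for prefoldin and 0.05 for TRiC.

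Transcript length moved with these differences. The median difference of all genes went from 0.11 in the 2466 genes with the shortest transcripts (longest annotated transcript 111 to 1904 bases) to −0.11 in the 2466 with the longest (5325 to 40378 bases). Of the members, 14, 19, 14, 5 and 4 fell in the 5 length classes from short to long, with medians of 0.19, 0.11, 0.05, 0.01 and 0.05. The prefoldin genes were short, with a median of 1062 bases. After each library was corrected for length and GC content, their median difference was 0.13. The same correction left the median of all members at 0.09, against 0.03 for all genes. In the corrected limma fit with the block Hspb6 passed (adjusted p = 0.0414), Pfdn4 (0.0683) and Bag1 (0.0698) did not, and Dnaja1 did (0.0422). In that fit 2 members (3.57%) rose and none fell, against 3% and 4.84% of all genes (7.84% in either direction). At an unadjusted p under 0.05 it had 19 members (33.9%) higher and 1 (1.79%) lower, against 15% and 12.8% of all genes.

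**Figure D3:**
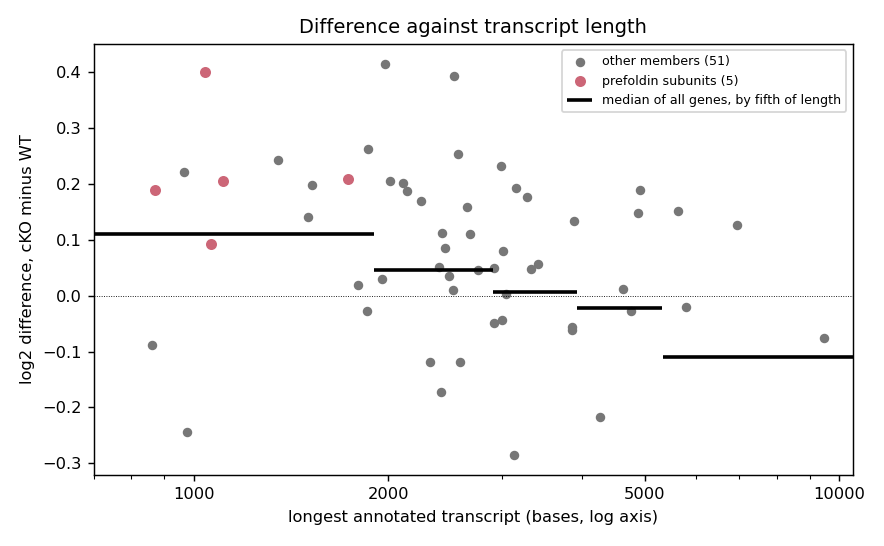
Log2 difference (cKO minus WT, y axis) of the 56 members against the length of their longest annotated transcript (bases, log axis); black lines are medians of all genes in 5 classes of length. The lines step down from 0.11 to −0.11, and the 5 prefoldin points lie at the short end.

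HSP70 binds short hydrophobic stretches of its clients. Hspa8, the constitutive HSP70 and rank 89 of the table by mean FPKM, was at 351, 368, 374 and 382 FPKM in the WT libraries and 397, 417, 437 and 435 FPKM in the cKO libraries. Each cKO value lay above each WT value, as for Hspb6, Dnaja3 and Dnajb4. The difference of Hspa8 was 0.19 (SE 0.09) with an adjusted p of 0.0785 with the block, short of the threshold. Joined with the block, Hspa8 differed by 0.16 under equal-sum scaling (limma adjusted p = 0.108) and by 0.09 under quantile scaling (0.377). Under median-of-ratios scaling and after the correction for length and GC content Hspa8 stayed at 0.19 (0.0814 and 0.065). Its annotated exons overlap the small RNA genes Snord14c, Snord14d and Snord14e on the same strand. The HSP110 genes, which exchange the nucleotide of HSP70, did not pass: Hspa4 differed by 0.01 (SE 0.08), Hspa4l by −0.08 (SE 0.13) and Hsph1 by −0.03 (SE 0.11). Hsph1, an Hsf1 target, was at 73.1, 66.8, 87.9 and 71.3 FPKM in the WT libraries and 74.2, 66.6, 82.7 and 69.5 FPKM in the cKO libraries, with overlapping groups.

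Hspa2, a HSP70 best known from the testis, was at 4.63, 6.86, 12.3 and 5.77 FPKM in the WT libraries and 5.91, 16.04, 11.5 and 6.56 FPKM in the cKO libraries. Bag3, which links HSP70 to selective autophagy, was at 15.3, 17.5, 32.8 and 19.3 FPKM in the WT libraries and 18.8, 34.7, 27.6 and 19.2 FPKM in the cKO libraries. The same 3 libraries, WT 4, cKO 3 and cKO 4, were the highest for both genes, and the groups overlapped. The SE of 0.34 for Hspa2 and 0.25 for Bag3 were the widest of the members, with adjusted p-values of 0.211 and 0.379 with the block.

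**Figure D4:**
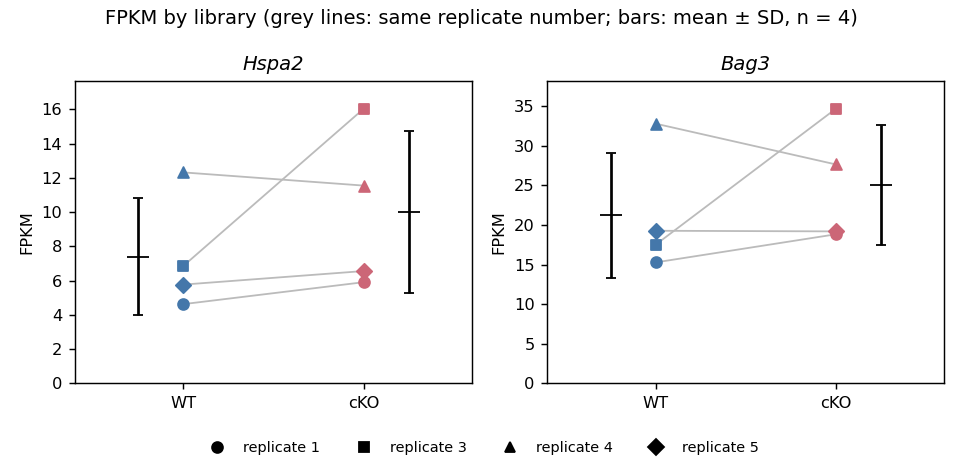
FPKM of Hspa2 and Bag3 in each library (y axis from 0), with grey lines joining libraries of equal number and bars for mean ± SD (n = 4 per group). WT 4, cKO 3 and cKO 4 are the high libraries in both panels.

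J proteins bring clients to HSP70 and start its ATP use. Of 7 members, 5 had a difference above 0 (median 0.15) and none passed. Dnajb1, the HSP40 that is induced with HSP70 in heat shock, was at 19.1, 15.6, 18.96 and 21.5 FPKM in the WT libraries and 23.2, 19.7, 21.2 and 24.1 FPKM in the cKO libraries. It was higher in cKO in every pair, and the groups overlapped. Its difference was 0.23 (SE 0.11, adjusted p = 0.0713 with the block). Dnaja3, which works in mitochondria, was at 25.7, 23.1, 26.9 and 26.5 FPKM in the WT libraries and 28.7, 28.02, 28.02 and 29.4 FPKM in the cKO libraries. Dnajb4, a cytosolic J protein, was at 28.2, 25.3, 28.3 and 24.3 FPKM in the WT libraries and 28.5, 28.5, 31.1 and 33.3 FPKM in the cKO libraries. The groups of these 2 genes did not overlap, by a narrow margin in Dnajb4, and the adjusted p-values were 0.164 and 0.177 with the block. Dnaja1, a partner of Hspa8, differed by 0.15 (adjusted p = 0.137 with the block) and passed only after the correction for length and GC content. Exons of Dnaja1 overlap those of Gm6297 and Smu1 on the opposite strand and of Mir207 on its own. Those of Dnaja3 overlap exons of Coro7 on the opposite strand and of Vasn on its own. Dnaja2, the most abundant, was at 76.00, 70.2, 76.4 and 95.6 FPKM in the WT libraries and 72.2, 76.5, 80.9 and 75.9 FPKM in the cKO libraries, and Dnaja4, the least, at 11.6, 11.5, 8.84 and 9.83 FPKM in the WT libraries and 9.74, 10.8, 9.32 and 10.4 FPKM in the cKO libraries. WT 5 was the high library for Dnaja2, and both genes had overlapping groups. Dnajb6, which keeps polyglutamine proteins from aggregating, differed by 0.05 (SE 0.09).

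BAG proteins release nucleotide and client from HSP70. Of 6 members, 5 had a difference above 0, with a median of 0.22; 1 passed with the block. Bag1 (chr4:40936398-40948294, minus strand), which ties HSP70 to the proteasome, was at 48.9, 42.3, 54.2 and 50.8 FPKM in the WT libraries and 61.2, 49.5, 63.7 and 58.2 FPKM in the cKO libraries. Every cKO library was above the WT library of its number, and the groups overlapped because cKO 3 lay within the WT range. The difference was 0.24 (SE 0.11), with a limma adjusted p of 0.0388 with the block and 0.474 without it. Bag2, an inhibitor of the ubiquitin ligase CHIP, was at 10.96, 6.75, 9.33 and 9.07 FPKM in the WT libraries and 13.4, 8.54, 10.4 and 11.3 FPKM in the cKO libraries. It too was higher in every pair, by 0.26 (adjusted p = 0.0763 with the block), and passed only when the block was joined with quantile scaling. Bag5 (0.19) and Bag4 (0.15) did not pass. Bag6, the most abundant and a factor in the quality control of membrane proteins, was at 90.02, 100.2, 85.1 and 84.97 FPKM in the WT libraries and 77.8, 89.99, 84.5 and 92.98 FPKM in the cKO libraries, with overlapping groups and a difference of −0.06 (SE 0.10).

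**Figure D5:**
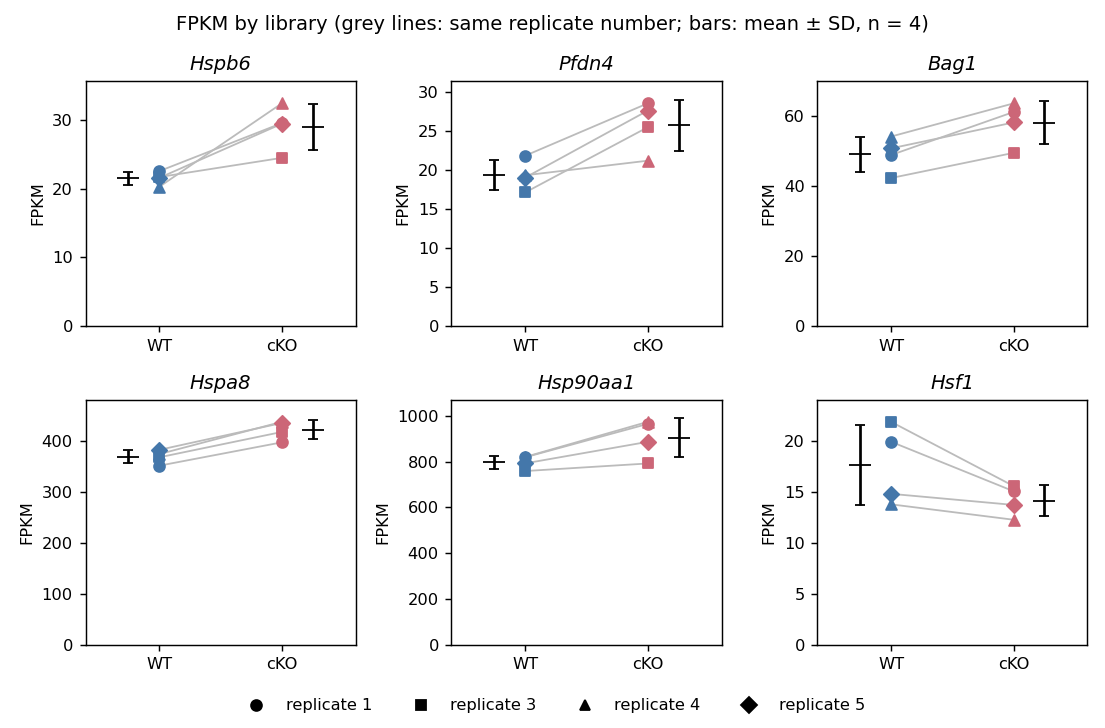
FPKM by library (y axes from 0) of Hspb6, Pfdn4, Bag1, Hspa8, Hsp90aa1 and Hsf1, with grey lines joining equal numbers and bars for mean ± SD (n = 4 per group). In each pair the cKO library is higher for the first 5 genes and lower for Hsf1.

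The 2 HSP90 genes had the highest FPKM of the members. Hsp90aa1, the inducible form and rank 24 of the table, was at 819, 759, 821 and 793 FPKM in the WT libraries and 966, 792, 975 and 887 FPKM in the cKO libraries. Hsp90ab1, the constitutive form and rank 54, was at 433, 468, 568 and 542 FPKM in the WT libraries and 490.0, 479.8, 560.1 and 487 FPKM in the cKO libraries. Hsp90aa1 was higher in cKO in every pair, and both pairs of groups overlapped. The difference was 0.18 (SE 0.12, adjusted p = 0.144 with the block) for Hsp90aa1 and 0.01 (SE 0.12, adjusted p = 0.946) for Hsp90ab1, and neither passed. The ratio of Hsp90aa1 to Hsp90ab1 was 1.89, 1.62, 1.44 and 1.46 in WT and 1.97, 1.65, 1.74 and 1.82 in cKO, higher in cKO in each pair and not tested.

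The cochaperones guide clients on and off HSP90. Stip1 (HOP), which bridges HSP70 and HSP90, was at 72.6, 65.9, 70.6 and 74.5 FPKM in the WT libraries and 84.7, 73.4, 80.7 and 87.9 FPKM in the cKO libraries. It had an unadjusted p of 0.0472 without the block, was higher in every pair and had overlapping groups, as cKO 3 lay within the WT range. The difference was 0.20 (SE 0.09, adjusted p = 0.061 with the block). Ahsa1, which speeds up the HSP90 ATPase, differed by 0.17 (adjusted p = 0.0933 with the block) and was higher in every pair. Chordc1, a HSP90-binding protein and the least abundant here, was at 21.3, 16.95, 15.05 and 13.6 FPKM in the WT libraries and 14.2, 18.9, 14.3 and 18.2 FPKM in the cKO libraries. WT 1 was the highest library of Chordc1, and the difference of −0.02 (SE 0.15) was within the spread.

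The mitochondrial chaperones fold proteins after import. Hspd1 (HSP60) was at 58.8, 53.3, 64.02 and 61.97 FPKM in the WT libraries and 65.9, 57.4, 63.9 and 70.4 FPKM in the cKO libraries. Hspe1 (HSP10) was at 44.3, 47.1, 56.6 and 58.99 FPKM in the WT libraries and 62.7, 51.00, 65.3 and 62.1 FPKM in the cKO libraries. Both groups overlapped for each gene, and Hspe1 alone was higher in every pair. Their differences were 0.11 and 0.22, with adjusted p-values of 0.268 and 0.12 with the block. Exons of this gene pair overlap on opposite strands. Hspa9 (mortalin), the mitochondrial HSP70, was at 63.2, 65.2, 61.9 and 71.5 FPKM in the WT libraries and 62.5, 69.96, 67.2 and 62.5 FPKM in the cKO libraries, a difference of 0.00 (SE 0.09). Trap1, the mitochondrial HSP90 and the least abundant of the 4, was at 24.2, 25.9, 26.02 and 22.5 FPKM in the WT libraries and 22.5, 22.4, 24.2 and 21.4 FPKM in the cKO libraries. It was lower in cKO in every pair, with overlapping groups, a difference of −0.12 and an adjusted p of 0.266 with the block.

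FKBPs are prolyl isomerases that bind the drug FK506. None of them passed. The 7 of the cytosol, nucleus and mitochondrion had a median difference of 0.02, from −0.24 (Fkbp1b) to 0.21 (Fkbp1a, FKBP12). Fkbp8, on the mitochondrial outer membrane and the most abundant, was at 153, 158, 169 and 161 FPKM in the WT libraries and 171, 145, 177 and 158 FPKM in the cKO libraries. Fkbp1b, a partner of ryanodine receptors and the least abundant member, was at 4.03, 3.32, 4.05 and 3.73 FPKM in the WT libraries and 3.08, 2.39, 4.69 and 2.67 FPKM in the cKO libraries. The groups overlapped for both, and cKO 4 was the highest library of Fkbp1b. The HSP90 partners Fkbp4 and Fkbp5 differed by 0.11 and −0.06, Fkbp3 by 0.13 and Fkbp15 by −0.22 (adjusted p = 0.141 with the block). The other 6 FKBPs (Fkbp2, Fkbp7, Fkbp9, Fkbp10, Fkbp11 and Fkbp14) belong to the endoplasmic reticulum by textbook location, so the symbols reach beyond cytosol and mitochondria. Fkbp2, the highest of these, was at 40.7, 47.3, 60.1 and 46.6 FPKM in the WT libraries and 56.9, 51.6, 58.1 and 55.1 FPKM in the cKO libraries, and Fkbp11, the lowest, at 5.07, 7.39, 8.23 and 4.51 FPKM in the WT libraries and 4.89, 4.85, 6.66 and 5.30 FPKM in the cKO libraries. The median difference of the 6 was −0.02, and 3 lay above and 3 below 0.

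Hsf1 itself (chr15:76477422-76501913, plus strand) was at 19.95, 21.9, 13.8 and 14.8 FPKM in the WT libraries and 15.1, 15.6, 12.3 and 13.7 FPKM in the cKO libraries. WT 1 and WT 3 were high, every cKO library was below the WT library of its number, and the groups overlapped. The difference was −0.29 (SE 0.15, limma adjusted p = 0.0767 with the block and 0.501 without it), so Hsf1 did not pass. It had the lowest difference of the members.

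Together the members made up 1.10%, 1.06%, 1.13% and 1.15% of the summed FPKM in the WT libraries and 1.17%, 1.12%, 1.20% and 1.18% in the cKO libraries. Each pair was higher in cKO, and the groups overlapped through WT 4, WT 5 and cKO 3.

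Beyond the members, 92 of 98 listed genes of the same machinery were measured. With the block 3 (3.26%) rose and 5 (5.43%) fell, against 2.99% and 7.59% of all genes, so the share that rose was near that of the table. Among 31 other J proteins, Dnajc12, a cochaperone of the aromatic amino acid hydroxylases, rose by 0.39 (adjusted p = 0.0115) and Dnajc5, a chaperone of synaptic vesicles, by 0.24 (0.0406). Dnajc13, which acts on endosomes, fell by 0.38 (0.0453). Among 25 other partners of HSP70 and HSP90, Sugt1, a HSP90 cochaperone, rose by 0.27 (0.04), while Unc45a, a myosin chaperone, fell by 0.32 (0.0355) and Tsc1, a HSP90 cochaperone better known from mTOR control, by 0.38 (0.044). Tbce, a tubulin folding cofactor, was at 28.97 ± 10.02 FPKM in WT and 17.00 ± 5.61 FPKM in cKO (SD, n = 4) and fell by 0.74 (adjusted p = 0.00474), the only one of 14 other chaperonin and prefoldin partners to pass. None of 13 other mitochondrial folding and protease genes and none of 9 other heat shock factors and Hsf1 targets passed. After the correction for length and GC content, 4 of the 92 passed with the block in the higher direction and 1, Tbce, in the lower, against 3% and 4.84% of all genes. Unc45a, Tsc1 and Dnajc13 no longer passed (0.0683, 0.131 and 0.159), and Dnajc15, a mitochondrial J protein, did (0.0436, from 0.0588 with the block alone).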

How the data were processed

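RNA extracted with the RNeasy Micro kit was selected for poly(A) and made into libraries with the NEBNext Ultra II Directional kit, per the labels' protocols. The authors deposited 1 table of FPKM for 12339 genes and 8 libraries. The submitters' processing notes name STAR, edgeR, GRCm38 and mm10. How fragments were counted, on which annotation and strand, and how genes were filtered is not given in the sources used here. The lowest mean in the table was 2.00 FPKM, so genes below it could not be examined. Fragment totals are not given, whole reads could not be recovered, and no counting interval was computed. No 2 libraries held the same values.

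The deposited FPKM were taken as log2(FPKM + 0.5) and compared between 4 WT and 4 cKO libraries with limma 3.58.1 in R 4.3.3 (lmFit, eBayes with a trend, Benjamini-Hochberg over all genes). The fit had 6 residual degrees of freedom, or 3 with the replicate number as a block. The pairing comes from the labels' numbers: with group means removed, deviations of a WT and a cKO library correlated over genes at 0.261 to 0.591 where the numbers matched, and at −0.479 to 0.211 where they did not. Over the 56 members alone these ranges were 0.410 to 0.626 and −0.644 to 0.587, which overlap. Removing the group means pushes some correlations below 0, so the negative values are not separate evidence of pairing. The fits were run on simulated data with independent libraries and planted changes larger than any member difference. That run checked the code and does not bear on the calls with the block. Lengths, positions and exon overlaps came from GENCODE mouse release 21 (GRCm38), and all 56 members matched. Of these, 32 had no exon overlap with another gene.

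The members and lists were chosen with earlier results of these data known, so no test over a list was made. Values per library are given for members past a threshold, with groups that do not overlap, or highest or lowest of their role, and for a fixed set of core chaperones. Bag3 was added for its likeness to Hspa2. Alternatives were pseudocounts of 0.1 and 1, a minimum mean of 5 FPKM, 3 scalings, the block, robust eBayes, library weights, and leaving out each library or pair. Chosen after seeing the data were the block with each scaling, a per-library spline correction (4 degrees of freedom) for length and GC content, and the count over all 4 pairs. A gene counted among the other genes of the same machinery is not reported here by name.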

Additional observations from a re-analysis of the deposited data

Results flagged for a closer look

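Of the 112 groups of 4 values (WT and cKO of each member), 3 held a library far from the other 3, where chance gives about 1 in 20. Fkbp7 was at 13.4 FPKM in cKO 4, against 6.84, 7.25 and 7.07 FPKM in cKO 1, 3 and 5. Fkbp1a was at 93.6 FPKM in cKO 3, below 112.5, 113.2 and 110.8 FPKM in cKO 1, 4 and 5. Hsp90ab1 was at 560.1 FPKM in cKO 4, above 490.0, 479.8 and 487.5 FPKM in cKO 1, 3 and 5. The cause was not tested.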

How the results depend on the processing

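Without the block, no member passed under the other pseudocounts, scalings, filter, robust eBayes, library weights, correction or left-out libraries, and library weights alone let 1 gene of the table pass. With the replicate block 1305 genes and 3 members passed, and 17 members had an unadjusted p under 0.05 in the higher direction and 2 in the lower. Joined with median-of-ratios scaling the block gave 1301, 3, 17 and 2, with equal-sum scaling 1337, 2, 13 and 2 (269 of the genes higher and 1068 lower), with quantile scaling 1064, 3, 15 and 1, and with the correction for length and GC content 967, 2, 19 and 1 (370 higher and 597 lower, against 369 and 936 with the block alone). Leaving out pairs 1, 3, 4 and 5 from the block gave 402, 606, 524 and 821 genes and 0, 1, 1 and 0 members, with 9, 11, 12 and 14 members at an unadjusted p under 0.05 in the higher direction and 2, 0, 3 and 1 in the lower. With library weights these counts were 18 and 2, and the median difference of the members was 0.15. Leaving out 1 library without the block gave 2 to 9 and 0 to 1, and 4 to 10 members whose groups did not overlap in the higher direction and 0 to 1 in the lower. The median of the members stayed between 0.05 and 0.13 there. For the scaled, weighted and left-out fits, the shares of all genes at an unadjusted p under 0.05 or without overlap were not computed. The block alone changed no call of a member other than those of Hspb6, Pfdn4 and Bag1. The causes were not tested.

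The difference kept its sign under all 26 alternatives for 33 of the 56 members, Hspb6, Pfdn4, Bag1, Hspa8, Hsp90aa1 and Hsf1 among them, and under 25 for Fkbp1b, which the minimum mean of 5 FPKM removed. It turned for 22 members, none of which passed a test. Under equal-sum scaling, with or without the block, it was −0.0029 for Cct2, −0.013 for Fkbp8, −0.023 for Hsp90ab1, −0.021 for Hspa4 and −0.030 for Hspa9. Under quantile scaling, likewise, it was −0.033 for Cct2, −0.012 for Cct3, −0.012 for Cct4, −0.0075 for Cct6a, 0.015 for Chordc1, 0.010 for Dnaja4, 0.011 for Fkbp5, −0.063 for Fkbp8, −0.094 for Hsp90ab1, −0.013 for Hspa4, −0.018 for Hspa9 and −0.0053 for Tcp1. With library weights it was −0.0034 for Hspa4, −0.020 for Hspa9 and 0.025 for Hsph1. After the correction for length and GC content, with or without the block, it was 8.8e-05 for Bag6, −0.029 for Cct2, −0.00029 for Cct4, 0.12 for Chordc1, −0.010 for Fkbp8, −0.00067 for Hsp90ab1, 0.13 for Hspa4l, −0.0038 for Hspa9 and 0.021 for Hsph1. Over the fits that each leave out 1 library, the difference that turned ran from −0.016 to 0.097 for Cct2, −0.030 to 0.13 for Cct3, −0.071 to 0.019 for Cct5, −0.11 to 0.10 for Chordc1, −0.11 to 0.042 for Dnaja2, −0.12 to 0.0054 for Dnaja4, −0.32 to 0.059 for Fkbp10, −0.027 to 0.13 for Fkbp14, −0.13 to 0.023 for Fkbp5, −0.022 to 0.073 for Fkbp8, −0.029 to 0.21 for Fkbp9, −0.059 to 0.071 for Hsp90ab1, −0.014 to 0.033 for Hspa4, −0.15 to 0.0086 for Hspa4l, −0.029 to 0.046 for Hspa9, −0.086 to 0.053 for Hsph1, −0.020 to 0.20 for Pfdn5 and −0.0016 to 0.12 for Tcp1. With the block, without pair 1 it was −0.027 for Fkbp8, 0.16 for Chordc1, −0.046 for Hsp90ab1, 0.020 for Dnaja4, −0.0047 for Cct2 and −0.062 for Cct3. Without pair 3 it was −0.030 for Hspa9. Without pair 4 it was −0.035 for Hspa9. Without pair 5 it was 0.0014 for Fkbp7 and 0.044 for Dnaja2. The causes were not tested. Fragment totals are not known, so the precision of single values rests on the 4 libraries of a group.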
